A study of Mus musculus with 21 samples.

Results

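Skeletal muscle keeps its ATP level steady with creatine kinases and with enzymes that trade AMP, ADP and ATP, and their transcripts were read here in single muscle fibers (myofibers). The genes were chosen by name, with earlier results of these data known. The genes were Ckm, Ckmt2, Ckb, Slc6a8, Ak1, Ampd1, Ampd3 and Adssl1, with every probe on the array whose gene name equals one of them. They are 8 of the 35527 entries in the gene name column of the array and have 10 of its 55681 probes. All 10 were among the 46925 probes that passed the filter on dim signals and were tested. Ckb and Ampd3 have 2 probes each, and the other genes have 1.

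Each of the 21 arrays held the amplified RNA of 1 untreated myofiber from a CD1 mouse 3 months old. There were 11 type 1 myofibers (slow, oxidative) from the soleus and 10 type 2B myofibers (fast, glycolytic) from the extensor digitorum longus (EDL). The 9 mice carry no transgene or deletion in the labels, 6 gave myofibers of each type, and mice 3, 4 and 9 gave both types. Each myofiber was typed by the myosin protein of a clipped end, and the remainder gave the RNA. Fiber type and muscle go together, so that their effects cannot be told apart. The labels call the mice male and the methods call the mice of the single myofibers female. Of the genes of the Y chromosome, Ddx3y was well above background on 21 of 21 arrays, Eif2s3y on 17 and Kdm5d on 14, and the 2 probes of Uty on 17 and 3. Of the 2 probes of Xist, the RNA of the inactive X chromosome, 1 was so on 9 arrays and the other on 0.

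Creatine kinases move a phosphate group between ATP and creatine, so that phosphocreatine can refill ATP where myosin and the calcium pumps use it. Adenylate kinase turns a pair of ADP molecules into ATP and AMP. AMP deaminase then removes the AMP as IMP, and adenylosuccinate synthetase and lyase bring IMP back to AMP, which closes the purine nucleotide cycle. Fast fibers are known for large bursts of ATP use met by phosphocreatine and glycolysis, and slow fibers for steady use met by mitochondria.

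Of the 10 probes, A_52_P502754 of Ampd3 gave the clearest difference between the fiber types. It was well above background in all 11 type 1 myofibers and in 1 of 10 type 2B myofibers. Ampd1, Ckm and Ak1 had higher signals in type 2B, and Ckmt2 had a lower one. The probes of Ckb disagreed, and Slc6a8 and Adssl1 passed neither adjusted test. The second Ampd3 probe was dim in both types and passed neither test as well (adjusted p = 0.052 after Benjamini-Hochberg). After Bonferroni adjustment in limma over all probes tested, 1 of the 10 probes passed at 0.05, Ampd3 A_52_P502754. Of all probes 1.43% passed, and 0.82% did so with a lower signal in type 2B. That Ampd3 probe met the filter on dim signals only through type 1. It was flagged as positive and significant in 11 of 11 type 1 and 2 of 10 type 2B myofibers. It missed Bonferroni with unflagged spots missing, and with dim spots raised to a background floor (adjusted p = 0.20). After Benjamini-Hochberg adjustment 6 of the 10 passed, where 7.57% of all probes did. Of the 6, 4 were higher in type 2B, against 3.48% of all probes, and 2 lower, against 4.09%. The median difference of the 10 probes was 0.04 on the log2 scale and that of all probes tested was 0.03. Signals are relative within each array, so that a larger share of a transcript in the RNA and more of it per myofiber cannot be told apart.

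The array reads each transcript with probes 60 bases long. Of the 10 probes 5 are shown because the readings of the creatine kinases and of Ampd1 depend on what they can bind. They lie in the protein-coding part of the transcripts, and each has at least 1 reading frame without a stop codon. The probe of Ckm and one probe of Ckb come from the same conserved stretch. With the Ckm probe shifted by 4 bases, 45 of 56 aligned bases are identical (80.4%), and these are in capitals. No other pair among the 10 probes had more than 24 identical bases in any ungapped alignment. How far the transcript of one gene binds to the probe of the other was not tested.
Ckm A_51_P380807: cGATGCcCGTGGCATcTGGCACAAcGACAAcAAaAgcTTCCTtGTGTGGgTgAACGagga
Ckb A_52_P385606: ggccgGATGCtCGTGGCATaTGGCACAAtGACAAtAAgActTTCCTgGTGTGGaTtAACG
Ckb A_55_P1976224: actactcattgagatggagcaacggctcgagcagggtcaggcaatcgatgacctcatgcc
Ckmt2 A_51_P165293: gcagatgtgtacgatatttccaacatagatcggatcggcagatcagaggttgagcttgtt
Ampd1 A_52_P880457: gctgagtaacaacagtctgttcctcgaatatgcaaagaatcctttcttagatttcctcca

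In the mm9 build of the array design, the Ckm probe covers chr7:20002222-20004829 on the plus strand, 2608 bases for a probe of 60, and so crosses an exon junction. The Ckb probe A_52_P385606 (chr12:112908459-112909105, minus strand) and the Ckmt2 probe (chr13:91993242-91995390, minus strand) cross a junction too. The second Ckb probe lies within 1 exon at chr12:112907787-112907846, and the Ampd1 probe at chr3:102902649-102902708 on the plus strand. The Ampd3 probe A_52_P502754 was designed on the RefSeq transcript NM_009667 and lies at chr7:117954980-117955039. The second one, A_55_P1983373, was designed on the clone AK171276 and lies 16817 bases upstream at chr7:117938163-117938222. The probes of Ak1 (chr2:32490509-32490568), Slc6a8 (chrX:70927775-70927834) and Adssl1 (chr12:113879491-113879550) each lie within 1 stretch of 60 bases.

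The promoters of the creatine kinases are printed because their probes differed between the types in different directions. RefSeq (GRCm38.p6) lists 11 promoters for 6 of the 8 genes, each from 250 bases before to 50 after a transcription start, and the 250 bases before the start are shown for 3 genes. Ckm lies at chr7:19410844-19411093 (plus strand), Ckmt2 at chr13:91876886-91877135 (minus strand) and Ckb at chr12:111672339-111672588 (minus strand). Capitals mark CANNTG, the E-box that MyoD family factors bind, in Ckm and Ckmt2, and a MEF2 motif in Ckb.
Ckm: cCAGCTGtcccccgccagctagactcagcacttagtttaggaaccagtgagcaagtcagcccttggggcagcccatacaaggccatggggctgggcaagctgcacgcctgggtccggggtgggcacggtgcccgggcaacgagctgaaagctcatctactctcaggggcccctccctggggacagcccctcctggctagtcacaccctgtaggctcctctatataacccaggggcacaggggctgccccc
Ckmt2: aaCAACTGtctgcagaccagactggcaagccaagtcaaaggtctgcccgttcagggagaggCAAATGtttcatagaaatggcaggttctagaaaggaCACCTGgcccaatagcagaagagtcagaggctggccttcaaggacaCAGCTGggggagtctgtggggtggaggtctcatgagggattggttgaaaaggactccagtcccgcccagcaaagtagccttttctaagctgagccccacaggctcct
Ckb: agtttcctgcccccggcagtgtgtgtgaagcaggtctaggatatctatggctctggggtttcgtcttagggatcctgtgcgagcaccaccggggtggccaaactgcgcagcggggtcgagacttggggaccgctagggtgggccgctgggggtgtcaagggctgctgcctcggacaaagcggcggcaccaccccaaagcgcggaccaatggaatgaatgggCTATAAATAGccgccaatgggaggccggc

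On both strands, the Ckmt2 promoter held 4 E-boxes, the Ckm promoter 1 and the Ckb promoter 0, and 72.3% of the 32851 promoters in the table held at least 1. Among the 11 promoters of these genes the MEF2 motif was found in that of Ckb, where it overlaps a TATAAA, and in 1 of Ak1. The Ak1 promoter (chr2:32625187-32625486, plus strand) held a TATAAA too. The MEF2 motif was in 3.19% of all promoters. TATAAA was found in 13.6% of them. The motif TNAAGGTCA of the estrogen-related receptors was in none of the 11 promoters of these genes and in 1.28% of all. These matches describe the letters in the windows.

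Myosin heavy chain transcripts were set against the type labels. Myh4, the myosin of type 2B, lay between 14.42 and 15.81 (log2 normalized signal) in the type 2B myofibers and between 1.80 and 8.61 in type 1. Myh1, the myosin of type 2X, lay between 1.72 and 12.04 in type 2B, with the highest value in E8.3. It was well above background in 8 of 10 type 2B and 3 of 11 type 1 myofibers, where it lay between 1.65 and 9.48. Myh7, the slow myosin, lay between 15.53 and 16.28 in 10 of the 11 type 1 myofibers. The myofiber labelled type 1 and named S6.4 stood apart, with 9.22 for Myh7 and 15.22 for Myh2, the myosin of type 2A. Results are therefore also given without S6.4, and the counts of 1 and 6 probes were the same. Myh2 had a value in 10 type 1 myofibers and was well above background in 7, S6.4 among them. S16.3 followed S6.4 with 13.03, and the lowest type 1 value was 1.73. In type 2B Myh2 lay between 1.77 and 3.99. The muscle markers Acta1 and Myf6 were well above background on all arrays. So were markers of other cells, namely Myod1 (satellite cell), 1 probe of Kdr (endothelium), Ptprc and Hba-a1 (blood), Col1a2 (connective tissue), Tagln and Myh11 (smooth muscle) and Sox10 (Schwann cell), while Myf5, Pdgfra, Pdgfrb and Nefl were so on none. Of the markers of other cells, the 3 probes of Ncam1 (satellite cell) and the probe of Col3a1 (connective tissue) passed Benjamini-Hochberg, all lower in type 2B. The Ncam1 probe that passed Bonferroni differed by -2.48 (log2, type 2B minus type 1, adjusted p = 0.03), and Col3a1 by -2.45 (adjusted p = 0.0014 after Benjamini-Hochberg). The summed signal of the satellite cell list (6 probes) was 1600 to 8490 for the type 1 myofibers and 649 to 4620 for the others. That of connective tissue (5 probes) was 281 to 4750 and 212 to 689, and that of blood (6 probes) 362 to 8640 and 398 to 781. S7.2 was the highest type 1 myofiber for Hba-a1 (12.94), and S16.3 for Col1a2 (11.59) and Col3a1 (10.32). For endothelium, smooth muscle and nerve the highest sums were 3670, 3470 and 500 in type 1 and 4190, 3770 and 723 in type 2B. The part of these markers in the results was not tested.

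**Figure D1:**
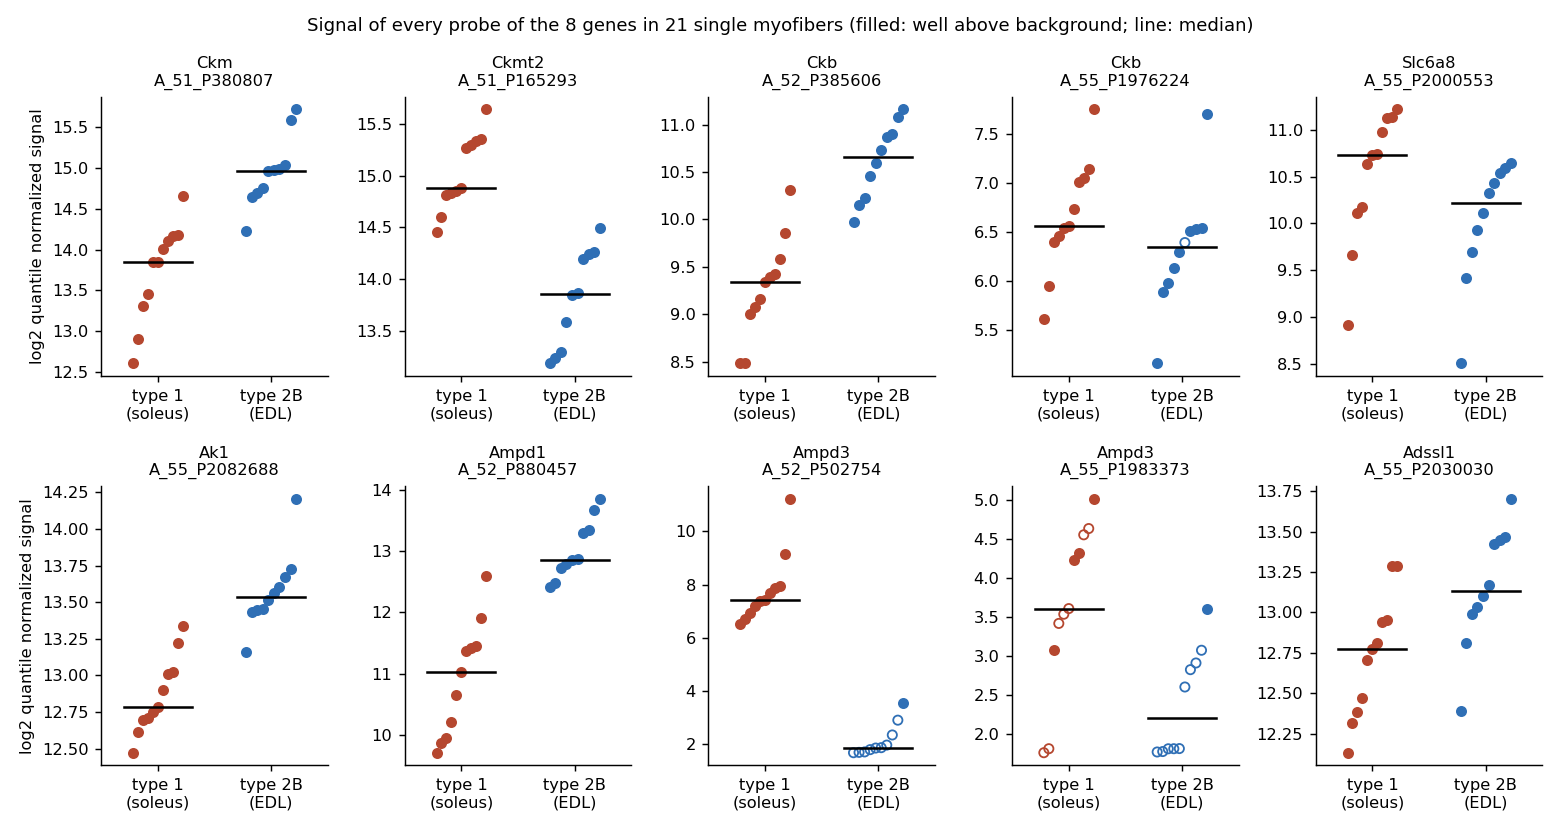
Log2 quantile normalized signal (vertical axes, each panel on its own scale) of the 10 probes in 11 type 1 and 10 type 2B myofibers, 1 point per myofiber, with the median as a line. Filled points are well above background and open points are not. The types do not overlap at Ampd3 A_52_P502754, where 9 of 10 type 2B points are open.

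Ckm encodes the cytosolic creatine kinase of muscle, which sits partly at the M line of the sarcomere. Its signal was 12.61 at the lowest, 13.85 at the median and 14.66 at the highest in type 1 (log2). In type 2B these were 14.23, 14.97 and 15.72. The types overlapped: 8 of 10 type 2B myofibers lay above every type 1 myofiber. By mouse the mean was 13.73 ± 0.58 for type 1 and 14.84 ± 0.34 for type 2B (SD, n = 6 mice per type). In limma the difference, type 2B minus type 1, was 1.23 (SE 0.25), a 2.34-fold higher signal. It missed Bonferroni (adjusted p = 1) and passed Benjamini-Hochberg (adjusted p = 0.0019). The exact permutation test over mouse means gave p = 0.0043, two-sided. S7.2 and S5.9 were the lowest of the type 1 myofibers. Leaving out mouse 3, which gave 7 of the 21 myofibers, took the Benjamini-Hochberg value to 0.062 with a difference of 1.10.

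Ckmt2 encodes the sarcomeric mitochondrial creatine kinase, which charges creatine with ATP as it leaves the mitochondrion. It ran opposite to Ckm. Type 1 myofibers gave 14.45 at the lowest, 14.88 at the median and 15.64 at the highest, and type 2B gave 13.18, 13.86 and 14.49. Only E8.3 of the type 2B myofibers reached the type 1 range, and the mouse means did not overlap. Mouse means did not overlap at 4 of the 10 probes, where 4.96% of all probes showed this. They averaged 15.01 ± 0.27 for type 1 and 13.72 ± 0.43 for type 2B (SD over 6 mice per type). The difference was -1.21 (SE 0.21; adjusted p = 0.38 after Bonferroni and 4.0e-04 after Benjamini-Hochberg), a 2.31-fold lower signal. The exact permutation p over mouse means was 0.0022, the smallest that 6 against 6 allow. S6.4 had the highest value of all, and without it the difference of mouse means was -1.23 with the same exact p. With the mouse as a fixed block, which rests on the mice of both types, the Benjamini-Hochberg value was 0.067.

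Ckb encodes the brain-type cytosolic creatine kinase, which adult muscle carries at a low level. Its probe A_52_P385606 gave 8.48, 9.34 and 10.32 in type 1 (lowest, median, highest) and 9.97, 10.66 and 11.16 in type 2B. Of the type 2B myofibers 7 of 10 lay above all of type 1. The difference was 1.33 (SE 0.23; adjusted p = 0.35 after Bonferroni and 3.7e-04 after Benjamini-Hochberg), with mouse means of 9.23 ± 0.42 and 10.64 ± 0.35 (SD of 6 mice each). The mouse means did not overlap, at an exact permutation p of 0.0022.

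The other Ckb probe, A_55_P1976224, gave another picture. Its signal was 5.61, 6.56 and 7.75 in type 1 and 5.16, 6.34 and 7.7 in type 2B, so the types overlapped almost wholly. The difference was -0.34 (SE 0.28; adjusted p = 0.58 after Benjamini-Hochberg), and the exact permutation p over mouse means was 0.15. It is the only one of the 10 probes in the values that the authors normalized themselves, where the difference was -0.38 (exact permutation p = 0.093 over mouse means).

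The 2 Ckb probes also moved differently from myofiber to myofiber. Over the 21 myofibers A_52_P385606 had a Pearson correlation of 0.78 with the Ckm probe, to which it is 80.4% identical in the aligned stretch, and of -0.31 with the other Ckb probe. After the type means were removed these were 0.41 and -0.15. The second Ckb probe had -0.14 with Ckm, and 0.12 after the type means were removed. These points share arrays and are given as a description. A direction for Ckb is therefore uncertain in these data.

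**Figure D2:**
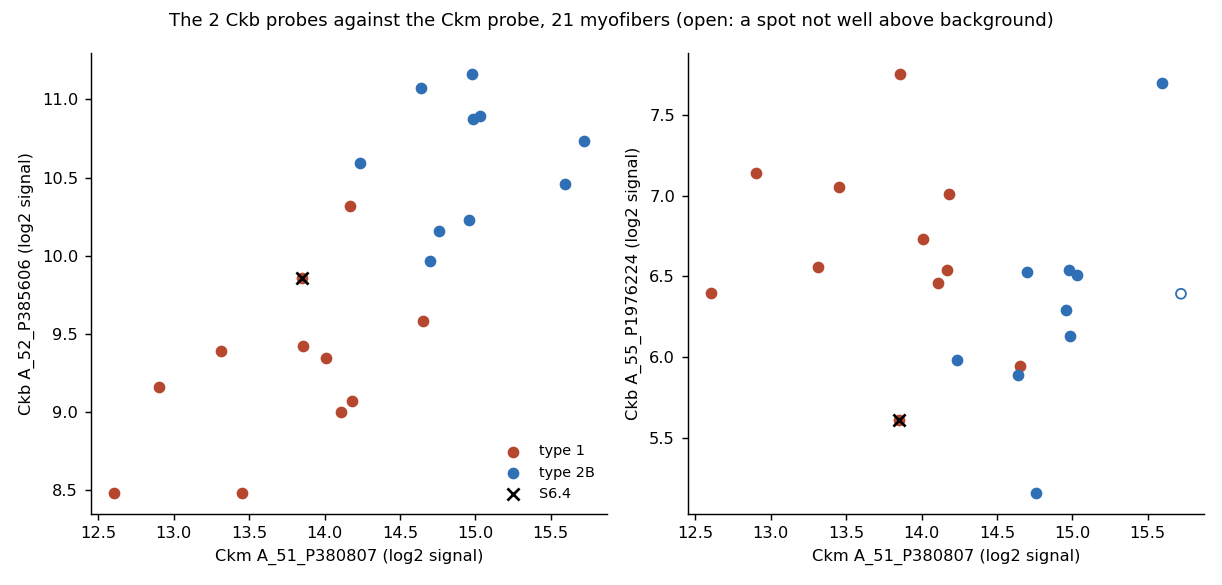
Log2 signal of the 2 Ckb probes (vertical axes) against the Ckm probe (horizontal axes) in 21 myofibers, type 1 in red and type 2B in blue; the cross marks S6.4 and an open point has a spot not well above background. The probe on the left follows Ckm (Pearson correlation 0.78) and the one on the right does not (-0.14).

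Slc6a8 is the transporter that brings creatine into the myofiber, since muscle makes little of its own. Its signal was 8.91, 10.73 and 11.22 in type 1 (lowest, median, highest) and 8.51, 10.22 and 10.65 in type 2B. The ranges overlapped, with 6 of the 11 type 1 myofibers above all of type 2B. The difference was -0.47 (SE 0.31; adjusted p = 0.46 after Benjamini-Hochberg) and the exact permutation p over mouse means was 0.10. Within slides and within mice the sign was negative throughout, from -1.27 on slide 2 to -0.26 on slide 1. Within types it ran against Ampd1, with a Pearson correlation of -0.76 between their deviations from the type means over the 21 myofibers, as a description.

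Ak1 is the cytosolic adenylate kinase of muscle, which makes ATP and AMP from ADP. Its signal was 12.47, 12.79 and 13.34 in type 1 and 13.16, 13.54 and 14.21 in type 2B. The spread within each type was small, about 1 log2 unit from lowest to highest, and 9 of 10 type 2B myofibers lay above every type 1 myofiber. E7.7 lay among the type 1 values. The difference was 0.71 (SE 0.16; adjusted p = 0.0065 after Benjamini-Hochberg and 1 after Bonferroni), a 1.64-fold higher signal. Mouse means were 12.96 ± 0.28 and 13.53 ± 0.20 (SD of 6 mice each; exact permutation p = 0.0065). The difference passed Benjamini-Hochberg in 11 of 14 alternatives. These do not count the fits on slides 1, 2 and 3 alone, where the Benjamini-Hochberg value was 0.069, 0.61 and 0.81. Among the 14 there were 3 misses. They came with 1 mean per mouse (0.57, adjusted p = 0.15), a fixed block per mouse (0.90, adjusted p = 0.053) and unflagged spots missing (0.64, adjusted p = 0.082). Without mouse 3 the difference missed too (0.54, adjusted p = 0.18).

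Ampd1 encodes the AMP deaminase of skeletal muscle. Type 1 myofibers gave 9.71 at the lowest, 11.04 at the median and 12.59 at the highest, and type 2B gave 12.41, 12.86 and 13.86. S11.3 was the sole type 1 myofiber within the type 2B range. The mouse means did not overlap, at 10.71 ± 0.78 for type 1 and 12.87 ± 0.44 for type 2B (SD over 6 mice per type; exact permutation p = 0.0022). The difference was 2.11 (SE 0.33), a 4.31-fold higher signal. It missed Bonferroni (adjusted p = 0.071) and passed Benjamini-Hochberg (adjusted p = 1.0e-04). Bonferroni was missed in all 14 alternatives too. Its adjusted p was 0.053 with the filter on signals well above background and 0.82 with the slide as a fixed block. Benjamini-Hochberg was also passed in all 14 alternatives and without each of the 9 mice. The 14 do not count the fits on slides 1, 2 and 3 alone, where the Benjamini-Hochberg value was 0.047, 0.18 and 0.78. The range within type 1, 2.88, was the widest among the probes well above background on every array.

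Ampd3 encodes another AMP deaminase, best known from red blood cells. At its probe A_52_P502754 the type 1 myofibers lay at 6.52, 7.43 and 11.23 (lowest, median, highest). Among them S11.3 with 11.23 and S5.9 with 9.16 stood out, and the others were at 7.93 or below. The type 2B myofibers lay at 1.69, 1.87 and 3.57, and only the highest, E8.3, was well above background. Before normalization, the processed signals were 92.1 to 1180 for type 1 and 2.66 to 21 for type 2B. The types did not overlap, which held for 1 of the 10 probes and for 1.34% of all probes.

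The difference at this probe was -5.66 (SE 0.44; adjusted p = 3.9e-07 after Bonferroni), so that its signal was lower in type 2B than in type 1. Mouse means were 7.90 ± 0.79 and 1.95 ± 0.33 (SD of 6 mice each; exact permutation p = 0.0022). Because 9 of 10 type 2B spots were not well above background, the direction is measured but the size depends on how dim spots are treated. With normexp background correction the difference was -2.35 (adjusted p = 0.047 after Bonferroni). With dim spots raised to the lowest signal well above background on their array it was -3.20 (adjusted p = 0.20 after Bonferroni, 2.8e-04 after Benjamini-Hochberg). With spots lacking the positive and significant flag set as missing, which leaves 2 type 2B myofibers, it was -4.84 (adjusted p = 1 after Bonferroni, 0.0017 after Benjamini-Hochberg). Of the red cell markers, Hba-a1 differed by -0.58 (adjusted p = 0.70 after Benjamini-Hochberg) and Alas2 by 0.46 (0.66). Hbb-b1 did not pass the filter on dim probes and was not tested. The part of red cell RNA in the Ampd3 difference was not tested.

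The second Ampd3 probe, A_55_P1983373, was dim in both types, well above background in 4 of 11 type 1 and 1 of 10 type 2B myofibers. It gave 1.76, 3.61 and 5.02 in type 1 and 1.77, 2.20 and 3.60 in type 2B. The difference was -1.25 (SE 0.39; adjusted p = 0.052 after Benjamini-Hochberg) and -0.06 with dim spots at the background floor. The exact permutation p over mouse means was 0.032, and 0.091 without S6.4.

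**Figure D3:**
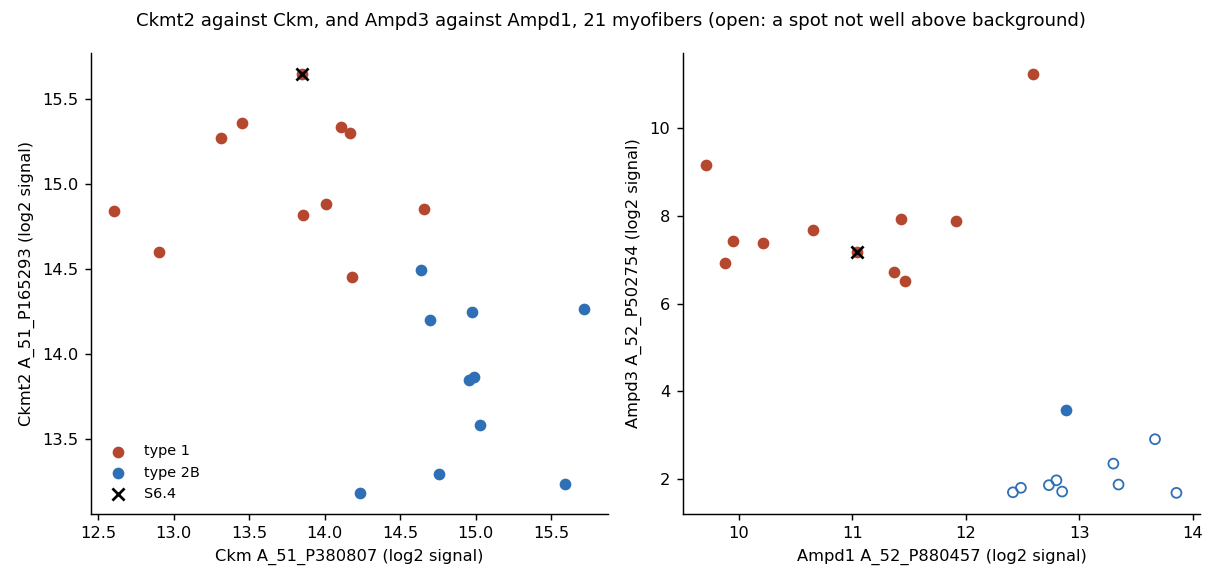
Log2 signal of Ckmt2 against Ckm (left) and of Ampd3 A_52_P502754 against Ampd1 (right) in 21 myofibers, type 1 in red and type 2B in blue; the cross marks S6.4 and open points have a spot not well above background. In both panels the type 2B myofibers lie to the lower right; after the type means were removed the Pearson correlations were 0.09 and 0.34.

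Over the 21 myofibers the Pearson correlation was -0.61 between Ckm and Ckmt2 and -0.72 between Ampd1 and Ampd3. After the type means were removed it was 0.09 and 0.34. The last value rests on few Ampd3 spots well above background in type 2B (1 of 10), and S11.3 was the highest type 1 myofiber for both Ampd1 and Ampd3. The points share arrays, and the values are a description.

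Adssl1 encodes the muscle isozyme of adenylosuccinate synthetase, which starts the return from IMP to AMP. It gave 12.13, 12.77 and 13.29 in type 1 and 12.39, 13.14 and 13.70 in type 2B, with wide overlap. The difference was 0.42 (SE 0.20; adjusted p = 0.25 after Benjamini-Hochberg), and the exact permutation p over mouse means was 0.20. It was positive within each of the mice 3, 4 and 9, at 0.65, 0.36 and 0.98. Adssl1 went with Ak1 from myofiber to myofiber, with a Pearson correlation of 0.74 over the 21 and of 0.65 after the type means were removed.

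Mice 3, 4 and 9 gave both types, so that each is its own comparison, with 3 and 4, 2 and 1, and 1 and 1 myofibers of type 1 and type 2B. Ckm was higher in type 2B by 1.36, 1.05 and 1.85 within these mice, and Ckmt2 differed by -1.06, -1.02 and -1.31. Ampd1 differed by 1.78, 2.39 and 2.70. These 3 genes kept their direction in each of the mice. Ak1 differed by 1.03, 0.65 and 0.78, and Ampd3 A_52_P502754 by -5.86, -5.35 and -7.46. Ckb A_52_P385606 differed by 1.47, 1.56 and 1.00. The second Ckb probe changed sign among the mice (-0.11, 0.37 and -1.98), and so did the second Ampd3 probe (-1.40, 0.18 and -1.25).

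The arrays were spread over 6 slides, of which slides 1, 2 and 3 held both types. Slide 1 held 4 myofibers of each type and had brighter signals than the others, and slides 2 and 3 held 2 of each. Within these slides the differences were 1.54, 0.52 and 1.88 for Ckm and -1.14, -1.30 and -1.60 for Ckmt2. They were 2.12, 2.97 and 1.23 for Ampd1. Each of these genes kept its direction on every slide, with the smallest Ckm difference on slide 2. Ak1 differed by 0.89, 0.36 and 0.86, and Ckb A_52_P385606 by 1.70, 0.73 and 1.85. For Ampd3 A_52_P502754 the values were -5.20, -5.40 and -7.14. The second Ckb probe had -0.29, -0.61 and 0.29, so that its sign differed on slide 3.

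**Figure D4:**
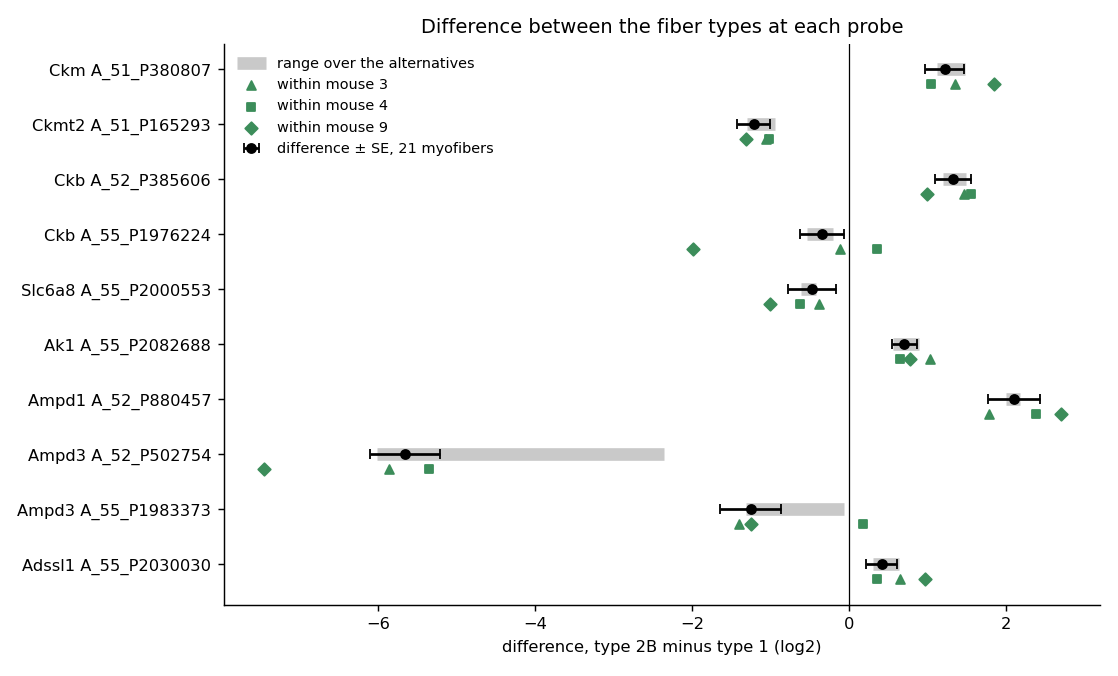
Difference between the types at each of the 10 probes (log2, type 2B minus type 1; 0 is no difference). Black points are the limma estimate with its SE, and green symbols the difference within mice 3, 4 and 9. Gray bars are the range over other processing settings, without the fits on single slides. The gray bar of Ampd3 A_52_P502754 reaches from -6.02 to -2.35.

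Around these 8 genes stand 36 related genes of creatine and adenine nucleotide metabolism. Of these, 34 have a probe under that name or an older one and 30 passed the filter. They too were listed with earlier results of these data known. With 1 probe per gene, the brightest, 3 of the 30 passed Bonferroni, 2 higher and 1 lower in type 2B, beside 1.43% of all probes. Benjamini-Hochberg was passed by 5, with 3 higher and 2 lower, beside 7.57% of all probes. The median difference of the 30 was 0.0035, and that of all probes was 0.03.

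In AMP-activated protein kinase, the enzyme that senses AMP, 2 of 7 subunits rose in type 2B and 5 did not pass either test. Prkag3, the gamma subunit of glycolytic muscle, lay between 6.82 and 7.91 in type 1 and between 10.33 and 12.69 in type 2B. The types did not overlap, and the difference was 4.04 (SE 0.27; adjusted p = 1.1e-08 after Bonferroni). Prkab2, a beta subunit, lay between 7.52 and 10.61 in type 1 and between 10.77 and 12.24 in type 2B. It differed by 2.78 (SE 0.34; adjusted p = 0.0019 after Bonferroni), again without overlap. Prkab2 missed Bonferroni with the slide, the scan day or the mouse as a fixed block, with 1 mean per mouse, without mouse 2 and on each slide alone. The 5 other subunits lay between -0.75 (Prkaa1) and 0.86 (Prkab1).

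Of the 9 genes tested for breakdown and salvage of nucleotides, 1 passed Bonferroni and 3 passed Benjamini-Hochberg. Nt5c2, a cytosolic nucleotidase that prefers IMP and GMP, fell in type 2B. Its brightest probe differed by -3.51 (SE 0.44; adjusted p = 0.0023 after Bonferroni) and the second by -3.86 (adjusted p = 3.4e-04). The second was dim in type 2B, well above background in 10 of 11 type 1 and 3 of 10 type 2B myofibers. At the brightest probe Nt5c2 missed Bonferroni in the same settings as Prkab2, and without mouse 3 and with the replicate number as a block. Adk, which returns adenosine to AMP, differed by -1.54 (adjusted p = 0.32 after Bonferroni and 3.5e-04 after Benjamini-Hochberg), and its second probe by -0.95 (0.30 after Benjamini-Hochberg). Nt5c1a, a nucleotidase that cleaves AMP in muscle, differed by 1.30 (adjusted p = 0.023 after Benjamini-Hochberg).

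In the other lists no gene passed Bonferroni. Among other adenylate kinases, Ak3 (0.65), Ak4 (-0.20) and Ak5 (-0.30) passed neither test. Gamt, the last step of creatine synthesis, differed by 0.87 at the brightest probe (adjusted p = 0.060) and by 1.19 at the other (0.034). None of the 3 remaining genes of the purine nucleotide cycle passed either test, with Ampd2 at -0.20, Adsl at 0.31 and Adss at 0.73. The 6 genes of ADP and ATP exchange at the mitochondrion did not pass either test. Slc25a4, the adenine nucleotide carrier of muscle, differed by -0.13 (SE 0.16), its paralog Slc25a5 by -0.83 (SE 0.30; adjusted p = 0.11 after Benjamini-Hochberg; exact permutation p over mouse means 0.0087) and the porins Vdac1, Vdac2 and Vdac3 by -0.12, 0.21 and 0.13.

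**Figure D5:**
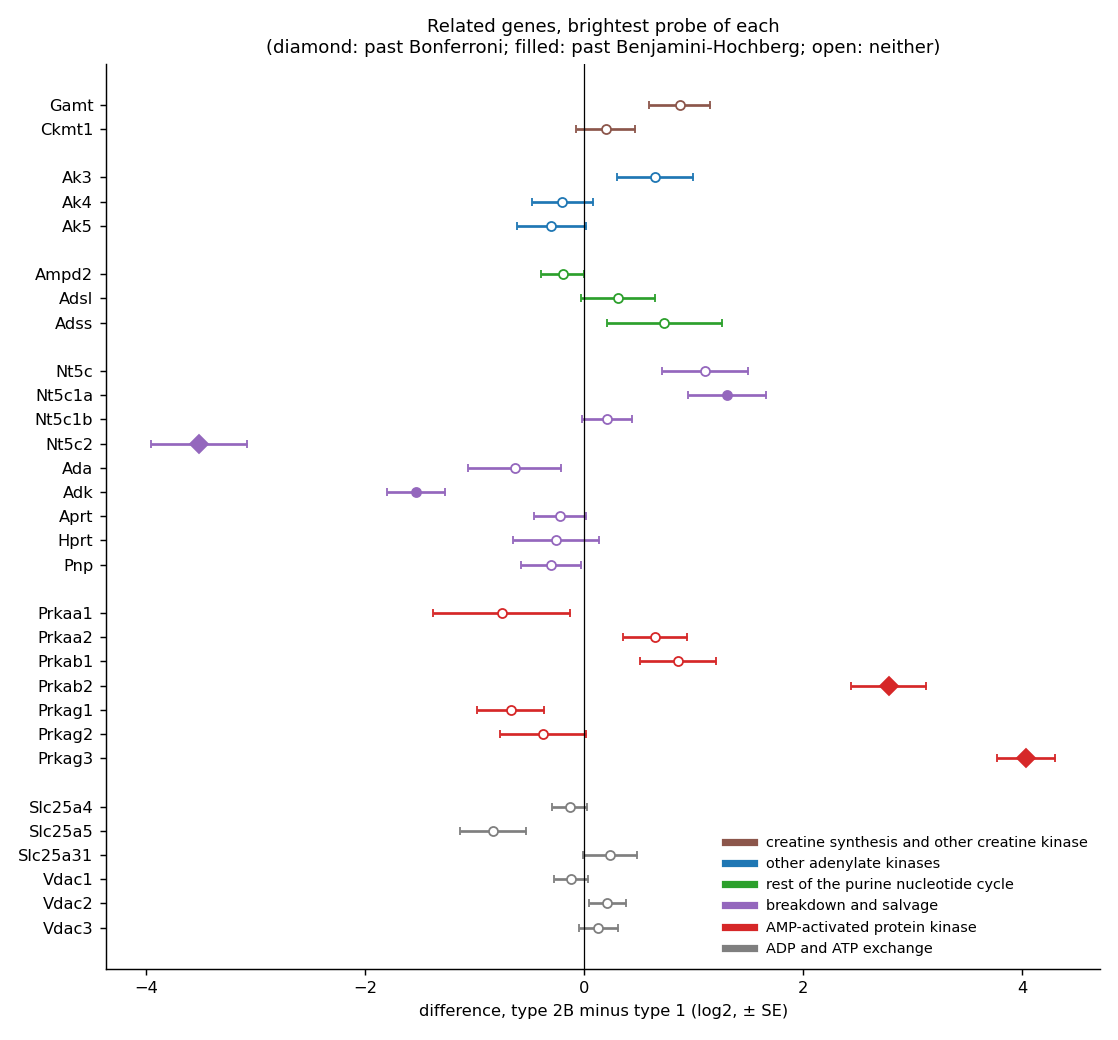
Difference between the types for 30 related genes (horizontal axis, log2, type 2B minus type 1, with SE), colored by list. Diamonds are past Bonferroni, filled points past Benjamini-Hochberg and open points past neither; Prkag3 (4.04) and Nt5c2 (-3.51) lie at the ends.

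For each of the 8 genes, the genes with the most similar signal over the 21 myofibers were sought among 26655 tested probes with a gene symbol. The probes share arrays, so these Pearson correlations are a description. Those of Ampd3 A_52_P502754 were Atp2a2 (0.94), the calcium pump of slow fibers, Myoz2 (0.94), a Z disc protein of slow fibers, and Lgi1 (0.94). Those of Ckmt2 were Gbp11 (0.90), Lmcd1 (0.90) and Lpl (0.88), the lipase that takes up fat from lipoproteins. On the fast side Ampd1 went with Ldha (0.89), the muscle form of lactate dehydrogenase, Cmbl (0.88) and Slc37a4 (0.88). Ak1 went with the glycolytic genes Gpi1 (0.94) and Gapdh (0.94) and with Pkdcc (0.93). Ckm went with the gene model Gm5069 (0.95), Gapdh (0.95) and the gene model Gm8055 (0.94). Ckb A_52_P385606 went with 3 gene models, Gm7189 (0.95), Gm15294 (0.95) and Gm4795 (0.94). Slc6a8 went with Nucb1 (0.88), Lemd2 (0.86) and Gnb2 (0.86), and Adssl1 with Taf9 (0.87), Sik3 (0.84) and Klhl17 (0.84).

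After the type means were removed, the nearest genes were others for most of the 8. Ckm kept its 3, with Gm5069 (0.89), Gapdh (0.87) and Gm8055 (0.85). Ckb kept Gm7189 (0.84) and Gm15294 (0.82), with Gm15503 (0.83) between them. Ckmt2 went with COX1 (0.84), a mitochondrial gene of the respiratory chain, and with Gm5459 (0.83) and Rpl7a-ps5 (0.80). Ampd1 went with Rpl23a (0.84), Ttn (0.83) and Med27 (0.82), and Ampd3 with Dtymk (0.91), 4930572J05Rik (0.85) and Dsp (0.84). Ak1 went with Gm9755 (0.88), Ogdh (0.86) and Deb1 (0.85), Slc6a8 with Zfp768 (0.91), Pacsin3 (0.89) and Tcof1 (0.87), and Adssl1 with Slc25a17 (0.87), Cox7a2l (0.87) and Srp54a (0.85).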

How the data were processed

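For each of the 21 arrays the authors deposited the scanner output of Agilent Feature Extraction (10.7.3.1 in the file headers), whose processed intensity is background-subtracted and detrended within the array but not normalized between arrays. RNA of single myofibers was PCR-amplified and labelled with Cy3, per the labels. Flags per spot (other columns of the deposited files) gave outliers and signal above background. The authors also deposited a table of quantile normalized intensity with values for 3687 features, which holds 1 probe of the 8 genes and was used only there. In it the columns of E13.3 and E12.5, both type 2B, follow each other's scanner output.

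Processed intensity was quantile normalized and taken as log2 with limma 3.58.1 in R 4.3.3. Outlier spots were left out, and spots of the same probe were averaged. A probe was tested if its positive and significant flag was set in 50% or more of the type 1 or of the type 2B myofibers. The fit used lmFit and eBayes, and duplicateCorrelation (statmod 1.5.0) took the mouse as a random block, at a consensus correlation of -0.02. A call is a Bonferroni adjusted p of at most 0.05 over all 46925 probes tested, after the study's rule, and Benjamini-Hochberg values are given beside it. Mouse means were compared with exact permutation tests over 924 groupings, in which 3 mice are in both groups and their pairing is not used. The fit was tested on simulated data. The R package data.table (version 1.17.8) read the files. Permutation tests were run with scipy 1.17.1, tables were made with pandas 2.3.3 and numpy 2.4.6 in Python 3.11.15, and plots with matplotlib 3.10.9.

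The text names every probe of the 8 genes, related genes from fixed lists (1 listed gene is not reported here) past either threshold, markers, and for each gene the 3 genes with the most similar signal. Probe IDs, clone names and coordinates in place of a symbol were not counted as genes there. The 8 genes and all lists were chosen with earlier results of these data known. Arrays have no read depth, and their number limits the precision. Probe positions are those of the mm9 design, and no genome was used here to align the probes again.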

Additional observations from a re-analysis of the deposited data

Results flagged for a closer look

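One value stood far from its group. At Ampd3 A_52_P502754 the mean of the type 2B myofibers of mouse 3 was 2.58 (log2 normalized signal), while the means of the other 5 mice lay between 1.70 and 2.02. The gap was 0.636 of the whole range of the 6 means. Mouse 3 gave 4 type 2B myofibers, among them E8.3 (3.57), the only type 2B myofiber in which this probe was well above background. In all, 30 groups of values were looked at this way, type 2B myofibers and mouse means of each type at each of the 10 probes. Chance alone would mark about 1 group in 20. The 11 type 1 myofibers were too many for this check. Without mouse 3 the difference at this probe was -5.77 (adjusted p = 1.3e-06 after Bonferroni in limma).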

How the results depend on the processing

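Of the 10 probes, 1 passed Bonferroni in the fit as reported, 0 on slide 1, 2 or 3 alone, 0 with unflagged spots missing and 0 with dim spots at the background floor, an alternative chosen after seeing the data, as was the use of the authors' table. In limma 7, 4, 4, 6 and 7 of the 10 still had an unadjusted p below 0.05 in these fits, and 4, 0, 0, 5 and 6 passed Benjamini-Hochberg. In place of Bonferroni, Benjamini-Hochberg gave 6 of the 10 probes, 5 of the 30 related genes and 3551 of all probes, and for the methods' t-test, here with unequal variances, no permutation and no spots set as missing, 6, 5 and 3171. With Bonferroni that test gave 1, 3 and 515. The count of 3 related genes became 1 (Prkag3) with the mouse as a fixed block, 1 mean per mouse, the slide or the scan day as a block, and on slide 1 alone, and 0 on slides 2 and 3, where 7 and 5 had an unadjusted p below 0.05. All 672 probes became 181 with the mouse as a fixed block, 354 with 1 mean per mouse, 89 on slide 1 and 0 on slides 2 and 3, where 7047 and 3859 had an unadjusted p below 0.05. Leaving out each mouse in turn gave 1 of the 10 probes each time, 1 to 3 related genes (1 without mouse 2) and 290 to 607 of all probes (290 without mouse 3).

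The replicate numbers of the 2 types do not mark a shared animal in the labels, and same-numbered myofibers had a median correlation of -0.03 over 10 pairs, and 1 type 1 myofiber correlated best with its own number. The fit with the replicate block gave 1 of the 10 probes, 2 related genes (Prkag3 and Prkab2) and 331 of all probes. Signs turned at the second Ckb probe on slide 3 (0.29) and in mouse 4 (0.37), and at the second Ampd3 probe in mouse 4 (0.18), where the cause was not tested. No other direction turned at the 10 probes in the alternatives run. Scaling moved the median of all probes little, to 0.09 with the 75th percentile. Faint signals limit Ampd3 in type 2B, where the size of the difference rests on how dim spots are treated.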
